A study of Rattus norvegicus with 8 samples.

Results

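The 37 genes described here encode the chaperones of the endoplasmic reticulum (ER) and the sensors, transcription factors and target genes of the unfolded protein response (UPR). They were chosen by name, with earlier results of these data known, so the counts below describe the genes and do not test them as a set. Each symbol had 1 row among the 32623 genes of the deposited table. All 37 passed the filter on low counts, as did 16715 genes in all. The libraries came from rat lung in 2 groups of 4. The MCT group came from rats given monocrotaline, a plant alkaloid that injures pulmonary vessels and is used to model pulmonary hypertension, and the control group from rats that the labels call only control. Strain, sex, age, dose, vehicle and time are not given here for either group. The labels also do not say that each library is from its own rat, so a p-value here reflects library-to-library variation that could be technical in part.

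Proteins that enter the ER are threaded through the Sec61 channel and folded there by the Hsp70 protein BiP (Hspa5), the Hsp90 protein Grp94 (Hsp90b1), the lectins calreticulin and calnexin and the protein disulfide isomerases. When unfolded proteins accumulate, the membrane sensors IRE1 (Ern1), PERK (Eif2ak3) and ATF6 start the UPR, which acts through spliced Xbp1, Atf4 and cleaved ATF6 to raise chaperone genes, slow translation and send misfolded proteins to the proteasome. Much of this control lies in mRNA splicing, translation and protein cleavage, which gene-level counts do not show. In lung, the secretory load falls on matrix-making fibroblasts, surfactant-making alveolar type 2 cells, plasma cells and mast cells among others.

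Library depth, worked out from the step between low counts, was 11.3 to 18.1 M read pairs in MCT and 10.8 to 14.8 M in control. Surfactant protein C, Sftpc, was at 13663 to 17053 FPKM (fragments scaled by transcript length and library size) in MCT and 18776 to 26795 FPKM in control, and the alveolar type 1 gene Ager at 949.6 to 1169 and 1131 to 1384 FPKM. MCT 1 and control 1 stood apart from the other libraries on the second principal component, so calls on the 37 genes that change without MCT 1, without control 1 or without both are given. A gene was called when edgeR's quasi-likelihood test on the counts gave a Benjamini-Hochberg adjusted p under 0.05 over all genes tested. Log2 fold changes are MCT minus control. Their SE was worked back from the test, as the absolute log2 fold change over the square root of its F statistic.

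In MCT lungs most of the ER folding genes among the 37 were higher. Of the 6 sensors and transcription factors of the UPR only Ern1 was called, and it was lower. Of the 37 genes, 16 were higher and 2 lower, against 11% of all genes tested that were higher and 9.45% that were lower (20.5% called in either direction). Among the 14 genes of folding proper (9 chaperones and co-chaperones, 2 lectin chaperones and 3 disulfide isomerases), 12 were higher and none lower, with a median log2 fold change of 0.52. The median over all genes tested was 0.03. No folding gene was lower at an unadjusted p under 0.05 either, or by DESeq2 or limma. With MCT 1 and control 1 left out, 11 of the 14 were higher. Highly expressed genes as a class also leaned upwards: of 823 genes with a mean of at least 100 FPKM, 27.1% were higher and 10.2% lower, with a median log2 fold change of 0.16.

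**Figure D1:**
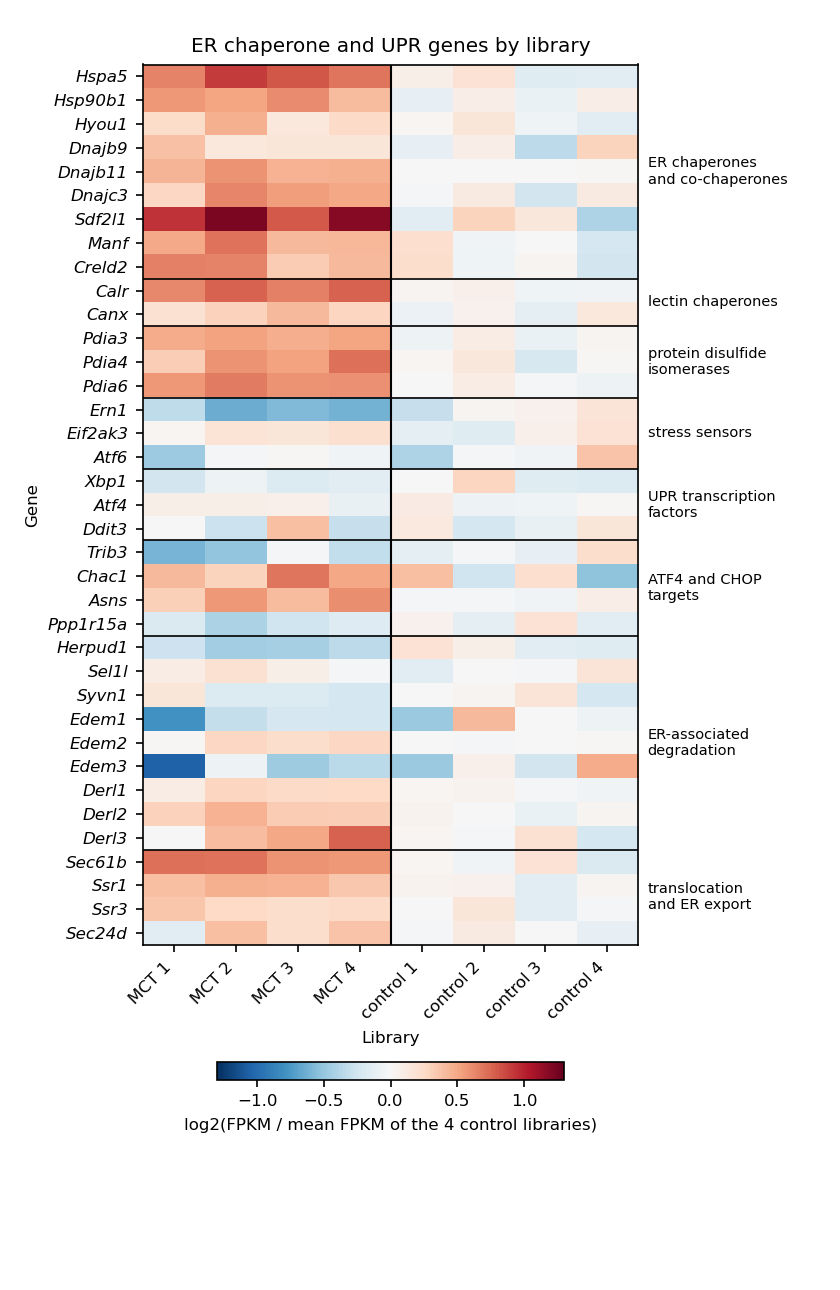
Level of each of the 37 genes (rows, grouped by role) in each library (columns, MCT left and control right), as log2 of its FPKM over the mean of the 4 control libraries. The rows of the chaperones and disulfide isomerases are red in the MCT columns, with Hspa5 at 298 to 358 FPKM in MCT against 170.4 to 216 FPKM in control, while Ern1 and Herpud1 are blue there.

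Hspa5 (BiP, on chromosome 3 of Rnor_6.0 from 13838304 to 13842762), the master chaperone that also holds the UPR sensors inactive, had 298, 358, 333 and 309 FPKM in MCT 1 to 4, against 200.4, 216, 170.4 and 173 FPKM in control 1 to 4. The lowest MCT library lay above the highest control library. The mean was 324 ± 26.9 FPKM in MCT and 190.2 ± 22.1 FPKM in control (SD, n = 4 each), a log2 fold change of 0.77 (SE 0.11, adjusted p = 0.00189 by edgeR). Its partner Hsp90b1 (Grp94, chromosome 7 from 27226569 to 27240533), an Hsp90 that folds integrins and Toll-like receptors, had 201, 195, 209 and 182 FPKM in MCT and 127, 145, 128 and 145 FPKM in control. The groups did not overlap, and the log2 fold change was 0.53 (SE 0.09, adjusted p = 0.00329 by edgeR).

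Sdf2l1, a small ER protein found in complexes with BiP and its J-domain partners, had the largest log2 fold change of the 37 genes, 1.04 (SE 0.17, adjusted p = 0.00342 by edgeR). It had 65.7, 80.0, 59.4 and 77.6 FPKM in MCT, against 31.1, 42.0, 37.9 and 25.9 FPKM in control. Even its lowest MCT library, MCT 3, was above every control library. Dnajb11 (ERdj3), a soluble J-domain protein that delivers clients to BiP, had 54.9, 60.8, 55.5 and 55.7 FPKM in MCT and 40.3, 40.4, 40.5 and 40.8 FPKM in control. Its log2 fold change was 0.49 (SE 0.06, adjusted p = 0.00141 by edgeR). Dnajc3 (p58IPK), a co-chaperone that also inhibits PERK, had 24.7, 31.7, 29.8 and 29.1 FPKM in MCT and 20.3, 22.1, 17.3 and 22.2 FPKM in control. Its log2 fold change was 0.49 (SE 0.11, adjusted p = 0.0119 by edgeR).

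The secreted ER stress proteins Manf and Creld2 were higher too. Manf, which binds BiP and is released from stressed cells, had 167, 192, 158 and 159.6 FPKM in MCT and 138, 115, 119 and 101 FPKM in control, a log2 fold change of 0.52 (SE 0.11, adjusted p = 0.0110 by edgeR). Creld2, a disulfide isomerase-like protein, had 47.4, 47.2, 37.9 and 40.3 FPKM in MCT and 35.3, 29.0, 30.9 and 25.6 FPKM in control. Its log2 fold change was 0.52 (SE 0.12), with an adjusted p of 0.0181 by edgeR that became 0.0567 without MCT 2. For both genes the groups did not overlap. The folding members that did not pass were Hyou1, a nucleotide exchange factor of BiP, at 45.6 ± 4.41 FPKM in MCT and 37.6 ± 3.43 FPKM in control (adjusted p = 0.0929 by edgeR), and Dnajb9 (ERdj4), a J-domain protein that recruits BiP to IRE1, at 15.99 ± 1.32 and 13.8 ± 2.55 FPKM (adjusted p = 0.309 by edgeR).

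Calr, the calcium-binding lectin calreticulin, was the most abundant of the 37 genes per length. It had 644, 709, 658 and 707 FPKM in MCT and 426, 435, 402 and 402 FPKM in control, with a log2 fold change of 0.70 (SE 0.08, adjusted p = 0.000694 by edgeR). The MCT and control libraries were far apart relative to the spread within each. Canx, its membrane-bound relative calnexin, had 132, 142, 154 and 139.7 FPKM in MCT and 109, 119, 105.1 and 127 FPKM in control, a log2 fold change of 0.30 (SE 0.08, adjusted p = 0.0352 by edgeR). The gap between its groups was narrow. The call on Canx was lost without MCT 2, MCT 3, MCT 4, control 1, control 2 or control 3 and with control 1 and MCT 1 both left out. It was also lost with limma on log2(FPKM + 0.5) and log2(FPKM + 0.1), with no filter on low counts and with the replicate number as a block (adjusted p = 0.0906), and its adjusted p was 0.00512 to 0.0988 over all alternatives.

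All 3 disulfide isomerases were higher and none had overlapping groups. Pdia3 (ERp57), which works with calreticulin and calnexin on glycoproteins, had 396, 406, 393 and 402 FPKM in MCT and 271, 303, 267 and 290.5 FPKM in control, a log2 fold change of 0.49 (SE 0.08, adjusted p = 0.00281 by edgeR). Pdia6 (P5), an isomerase that also acts on IRE1, had 225, 244, 229 and 230.4 FPKM in MCT and 152, 163, 149.9 and 146 FPKM in control, a log2 fold change of 0.60 (SE 0.07, adjusted p = 0.00105 by edgeR). Pdia4 (ERp72), an isomerase found with BiP and Grp94, had 95.3, 115, 109.9 and 126 FPKM in MCT and 77.9, 84.6, 66.2 and 77.4 FPKM in control, a log2 fold change of 0.54 (SE 0.11, adjusted p = 0.00809 by edgeR). Pdia3 overlaps Ppip5k1 on the other strand of the annotation.

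Added together, the folding genes separated the groups. The summed level of the 14 folding genes was 2414, 2647, 2484 and 2518 FPKM in MCT 1 to 4, against 1680, 1771, 1582 and 1627 FPKM in control 1 to 4. The other 23 genes summed to 936 to 978 FPKM in MCT and 872 to 963 FPKM in control, so these sums overlapped. A sum weighs abundant genes most, and Xbp1 and Atf4, not called, had the highest mean FPKM of the 23. Singly, the called genes of the 23 (Sec61b, Ssr1, Asns, Derl2, Ern1 and Herpud1) had groups without overlap. MCT 2 held the highest MCT level for 9 of the 14 folding genes, and MCT 1 the lowest for 7.

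**Figure D2:**
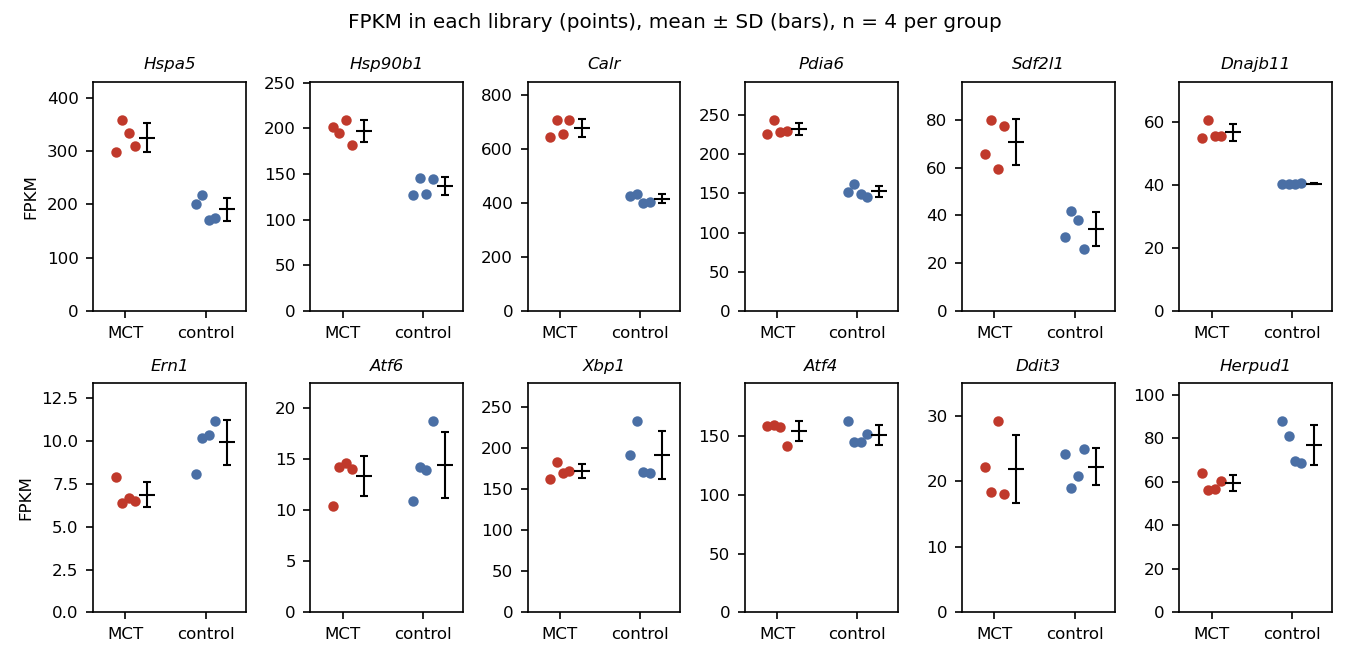
FPKM of 12 of the genes in each library (points; MCT left, control right) with the mean ± SD of 4 libraries beside them; every axis starts at 0. The 6 folding genes of the upper row have no overlap between groups, while Xbp1, Atf4 and Ddit3 in the lower row overlap and Ern1 and Herpud1 are lower in MCT.

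Promoter sequences are shown because many ER chaperone genes are known to carry a common regulatory element. The ER stress response element, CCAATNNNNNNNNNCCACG, is bound by NF-Y together with ATF6 or spliced XBP1. Promoters of 300 bases (250 before the annotated start and 50 after) were found for 30 of the 37 genes in the RefSeq annotation of build GRCr8, the others being Atf6, Derl1, Ern1, Manf, Pdia3, Pdia6 and Sec24d. An exact match on either strand was present in 22 of all 33469 promoters (0.0657%). Counted by gene, it was present in 8 of the 30 (26.7%). Because the element is known from ER chaperone genes, the higher share among the 30 is no finding of these data. The 8 were Hspa5, Hsp90b1, Calr, Canx, Creld2, Dnajc3, Derl3 and Xbp1. Of these 8 genes, 6 were higher in MCT, all of them folding genes, and Xbp1 and Derl3 did not pass. Of the folding genes whose promoters lacked an exact match, Sdf2l1, Dnajb11 and Pdia4 were higher too, and Hyou1 and Dnajb9 did not pass. Manf, Pdia3 and Pdia6, also higher, had no promoter to search. A link between the element and the higher levels was not tested. Another 8 tested genes held the element, and 2 of them, Zfand2a (0.53 on the log2 scale) and Birc5 (2.62), named here after their values were seen, were higher. In the sequences, read 5′ to 3′ towards the gene, capitals mark the element. On the minus strand it reads CGTGG first and ATTGG last. The Hspa5 stretch, chr3:38452866-38453015 (plus strand), ends at the base before the start, and the Hsp90b1 stretch, chr7:23012324-23012493 (minus strand), holds 1 copy on each strand.
Hspa5: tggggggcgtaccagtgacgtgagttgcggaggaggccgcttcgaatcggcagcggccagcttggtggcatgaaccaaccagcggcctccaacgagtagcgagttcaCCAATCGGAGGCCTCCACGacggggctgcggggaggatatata
Hsp90b1: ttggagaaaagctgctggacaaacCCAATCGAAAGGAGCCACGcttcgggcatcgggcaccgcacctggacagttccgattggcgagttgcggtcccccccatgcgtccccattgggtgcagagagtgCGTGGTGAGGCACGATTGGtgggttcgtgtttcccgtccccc

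Shorter stretches of 20 bases on either side, or fewer at the edge of the window, show the element in the other holders, Calr at chr19:40213117-40213173 (plus strand), Canx at chr10:35158049-35158107 (minus strand), Creld2 at chr7:121789219-121789277 (plus strand), Dnajc3 at chr15:102432514-102432572 (plus strand), Xbp1 at chr14:84604538-84604596 (plus strand) and Derl3 at chr20:12766581-12766639 (minus strand). Herpud1, at chr19:10614801-10614851 (minus strand), is set beside them because it holds the related ER stress response element II, with the letters ATTGG, 1 base of any kind and CCACG, and was lower in MCT.
Calr: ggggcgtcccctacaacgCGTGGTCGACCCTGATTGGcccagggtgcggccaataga
Canx: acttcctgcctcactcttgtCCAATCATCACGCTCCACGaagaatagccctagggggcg
Creld2: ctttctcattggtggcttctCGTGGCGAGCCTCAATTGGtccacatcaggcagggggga
Dnajc3: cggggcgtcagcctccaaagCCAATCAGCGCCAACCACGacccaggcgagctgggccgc
Xbp1: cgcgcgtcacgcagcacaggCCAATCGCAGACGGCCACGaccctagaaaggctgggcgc
Derl3: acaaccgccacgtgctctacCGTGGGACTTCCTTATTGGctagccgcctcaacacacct
Herpud1: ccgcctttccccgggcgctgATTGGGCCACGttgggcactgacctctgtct

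The element II was present in 0.0508% of all promoters and in 3 of the 30, Dnajb11 (higher), Herpud1 (lower) and Hyou1 (not past the threshold). The C/EBP-ATF response element, TGATGNAA, through which ATF4 acts, was present in 3.98% of all promoters and in 3 of the 30, Chac1, Trib3 and Herpud1, of which Herpud1 alone was called. The ATF6 and XBP1 element, TGACGTGG, was present in 0.595% of all promoters and in Hyou1 alone among the 30, where it overlaps a copy of element II. These matches describe letters in a window on both strands and do not show binding.

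Of the 3 sensors none was higher (none by DESeq2 or limma or at an unadjusted p under 0.05) and 1 was lower. Ern1 (IRE1 alpha), the kinase and ribonuclease that splices Xbp1, had 7.91, 6.37, 6.69 and 6.49 FPKM in MCT and 8.07, 10.2, 10.4 and 11.1 FPKM in control, a log2 fold change of -0.53 (SE 0.12, adjusted p = 0.0133 by edgeR). The groups did not overlap, but MCT 1 and control 1 were close to each other. With both left out the log2 fold change was -0.71, and with the replicate number as a block the adjusted p was 0.0507. Eif2ak3 (PERK), the kinase that slows translation through eIF2 alpha, had 7.48 to 8.48 FPKM in MCT and 6.57 to 8.39 FPKM in control, with a log2 fold change of 0.14 (SE 0.09, adjusted p = 0.314 by edgeR). Atf6, the membrane-bound factor released by cleavage, had 10.4 to 14.6 FPKM in MCT and 10.9 to 18.7 FPKM in control, and its log2 fold change of -0.12 (SE 0.16) became 0.01 without control 4.

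None of the 3 transcription factors was called. Xbp1, the target of IRE1, had 162, 183, 169.6 and 172 FPKM in MCT and 192, 233, 171 and 169 FPKM in control, a log2 fold change of -0.16 (SE 0.12, adjusted p = 0.378 by edgeR). Atf4, the factor translated when eIF2 alpha is phosphorylated, averaged 154 ± 8.53 FPKM in MCT and 151 ± 8.42 FPKM in control, a log2 fold change of 0.03 with an SE of 0.07. Ddit3 (CHOP), a pro-apoptotic factor of prolonged stress, averaged 21.9 ± 5.18 FPKM in MCT and 22.2 ± 2.79 FPKM in control. The log2 fold changes of Atf4 and Ddit3 were near 0 and changed sign in some alternatives. None of the 3 factors had an unadjusted p under 0.05, and DESeq2 and limma called none. Ddit3 overlaps Mars1 on the other strand of the annotation, and no source used here says whether counting was by strand.

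Among the targets of ATF4 and CHOP, Asns, the asparagine synthetase, was higher. It had 14.5, 17.3, 15.6 and 17.9 FPKM in MCT and 11.6, 11.5, 11.4 and 12.4 FPKM in control, a log2 fold change of 0.48 (SE 0.09, adjusted p = 0.00599 by edgeR). The groups did not overlap. Trib3, a pseudokinase that dampens the response, averaged 4.50 ± 0.821 FPKM in MCT and 5.73 ± 0.662 FPKM in control (adjusted p = 0.147 by edgeR). Ppp1r15a (GADD34), which restores translation, had 21.6 to 25.4 FPKM in MCT and 25.8 to 32.5 FPKM in control, without overlap but with an adjusted p of 0.103 by edgeR. Chac1, a glutathione-degrading enzyme, was near 1 FPKM in every library (1.16 to 1.53 in MCT, 0.66 to 1.24 in control), and its log2 fold change of 0.47 had an SE of 0.29.

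**Figure D3:**
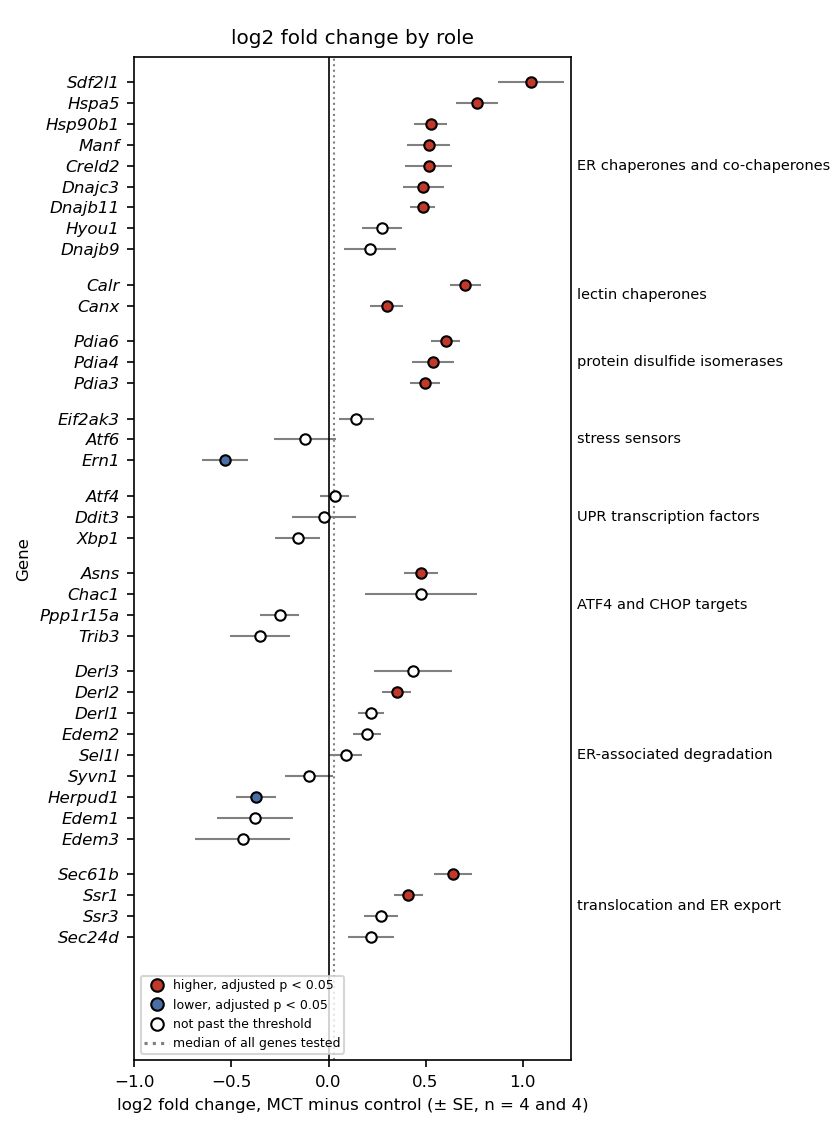
Log2 fold change of each gene, MCT minus control, with its SE (4 and 4 libraries), grouped by role. The 12 called folding genes lie between 0.30 and 1.04, and the called genes below 0 are Ern1 at -0.53 and Herpud1 at -0.37.

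ER-associated degradation pulls misfolded proteins back to the cytosol for the proteasome. Of the 9 degradation genes described here, 1 was higher and 1 lower (11.1% each). These shares were near those over all genes tested, 11% higher and 9.45% lower. Herpud1, a membrane adaptor of the Hrd1 ligase complex, had 63.9, 56.3, 56.9 and 60.7 FPKM in MCT and 87.9, 81.3, 69.7 and 69.0 FPKM in control, a log2 fold change of -0.37 (SE 0.10, adjusted p = 0.0311 by edgeR). The groups did not overlap, but the call was lost without MCT 2, MCT 3, MCT 4, control 1 or control 2, and the highest adjusted p over the alternatives was 0.0880. Derl2, a channel-forming derlin, had 30.1, 33.4, 30.7 and 30.6 FPKM in MCT and 25.1, 24.6, 23.0 and 25.0 FPKM in control, a log2 fold change of 0.35 (SE 0.08, adjusted p = 0.0117 by edgeR). Its groups did not overlap. Its relative Derl1 was at 42.2 ± 2.36 and 36.2 ± 1.11 FPKM, just short of the threshold (adjusted p = 0.0508 by edgeR), and Derl3 at 9.39 ± 2.02 and 6.92 ± 0.838 FPKM (adjusted p = 0.160).

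The ligase Syvn1 (Hrd1) and its partner Sel1l had log2 fold changes of -0.10 and 0.09 and were not called. Syvn1 had 19.3 to 25.3 FPKM in MCT and 19.4 to 25.5 FPKM in control, and Sel1l 21.2 to 24.7 and 19.4 to 24.1 FPKM. The mannosidase-like Edem1, Edem2 and Edem3, which mark glycoproteins for removal, had log2 fold changes of -0.38, 0.20 and -0.44 and were not called. Edem2 had groups that did not overlap, 27.3 to 32.6 FPKM in MCT and 26.7 to 27.2 FPKM in control, and was called without MCT 1 (adjusted p = 0.0313) and without MCT 1 and control 1 (adjusted p = 0.0491). Derl1 was also called without MCT 1 (adjusted p = 0.0344). Edem1 had 26.2 to 38.7 FPKM in MCT and 32.4 to 60.4 FPKM in control, with overlap. Edem1 and Edem3 were lowest in MCT 1 among the MCT libraries and lowest in control 1 among the control libraries, at 26.2 and 3.07 FPKM in MCT 1 and 32.4 and 4.54 FPKM in control 1. Without MCT 1 the number of degradation genes called higher was 3, against 1 with all libraries.

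At the entry to the ER, Sec61b, a subunit of the protein-conducting channel, had 145, 144, 132 and 130.5 FPKM in MCT and 89.5, 85.7, 100.4 and 77.4 FPKM in control, a log2 fold change of 0.64 (SE 0.10, adjusted p = 0.00259 by edgeR). Ssr1, a subunit of the translocon-associated complex, had 42.5, 44.8, 44.4 and 41.2 FPKM in MCT and 33.4, 33.8, 29.2 and 33.3 FPKM in control, a log2 fold change of 0.41 (SE 0.07, adjusted p = 0.00494 by edgeR). For Sec61b and Ssr1 the groups did not overlap. Ssr3, a partner of Ssr1, was at 71.2 ± 2.99 and 58.9 ± 5.17 FPKM, without overlap but with an adjusted p of 0.0580 by edgeR, and the COPII coat gene Sec24d at 19.8 ± 3.17 and 16.9 ± 1.09 FPKM (adjusted p = 0.233 by edgeR). Sec24d was called higher without MCT 1 (adjusted p = 0.0388). Across all 37 genes the groups did not overlap for 19 that were higher and 3 that were lower, against 13.3% and 11.7% of all genes tested.

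The 11 related lists cover the secretory pathway, the integrated stress response and the chaperones outside the ER. Of their 179 tested genes, none of them among the 37, 57 were higher (31.8%) and 8 lower (4.47%). Over all genes tested, 11% were higher and 9.45% lower (20.5% called). Each count for a related or marker list below is to be read beside these shares, and several lists were near them. Leaving out 1 library at a time gave 29 to 56 higher and 2 to 8 lower, and the count of higher genes was 29 to 37 without MCT 2, MCT 3, MCT 4, control 2, control 3 or control 4. In the deposited annotation, 30 of the 37 genes belong to the KEGG pathway of protein processing in the ER. Of the 124 tested genes of that pathway outside the 37, 28 were higher (22.6%) and 6 lower (4.84%).

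In the translocon and signal peptidase list, 8 of 19 tested genes were higher and none lower (none by DESeq2 or limma or at an unadjusted p under 0.05). Sec61g, another channel subunit, averaged 125 ± 5.10 FPKM in MCT and 74.5 ± 4.78 FPKM in control, and Sec11c, a catalytic subunit of signal peptidase, 48.3 ± 3.60 and 26.9 ± 2.06 FPKM. In the oligosaccharyltransferase list, the complex that adds N-glycans, 6 of 11 were higher and none lower (none by DESeq2 or limma or at an unadjusted p under 0.05). Ost4 and Ostc had log2 fold changes of 0.71 and 0.87. That count was 2 without MCT 2, MCT 3, MCT 4 or control 3 and 3 without control 4.

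Of 15 other disulfide isomerases and oxidases, 4 were higher and none lower (none by DESeq2 or limma or at an unadjusted p under 0.05), with P4hb, the prototype isomerase and a subunit of collagen prolyl hydroxylase, at 293 ± 32.9 FPKM in MCT and 204 ± 6.28 FPKM in control, and Txndc5 at 0.40 on the log2 scale. Of 15 collagen folding and modification genes, 7 were higher and none lower (1 lower by DESeq2, none by limma and 1 at an unadjusted p under 0.05), among them Plod2, a lysyl hydroxylase, and Ppib, a prolyl isomerase, with log2 fold changes of 0.99 and 0.45. This count was 6 without MCT 1 and 3 or 4 without any of the other libraries. Of 10 glycan trimming and lectin cycle genes, 3 were higher and none lower (none by DESeq2 or limma or at an unadjusted p under 0.05), with Mcfd2 at 0.34 and Erlec1 at 0.23. The count of higher genes was 0 to 2 when 1 library was left out, and 0 by limma on log2(FPKM + 0.5).

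**Figure D4:**
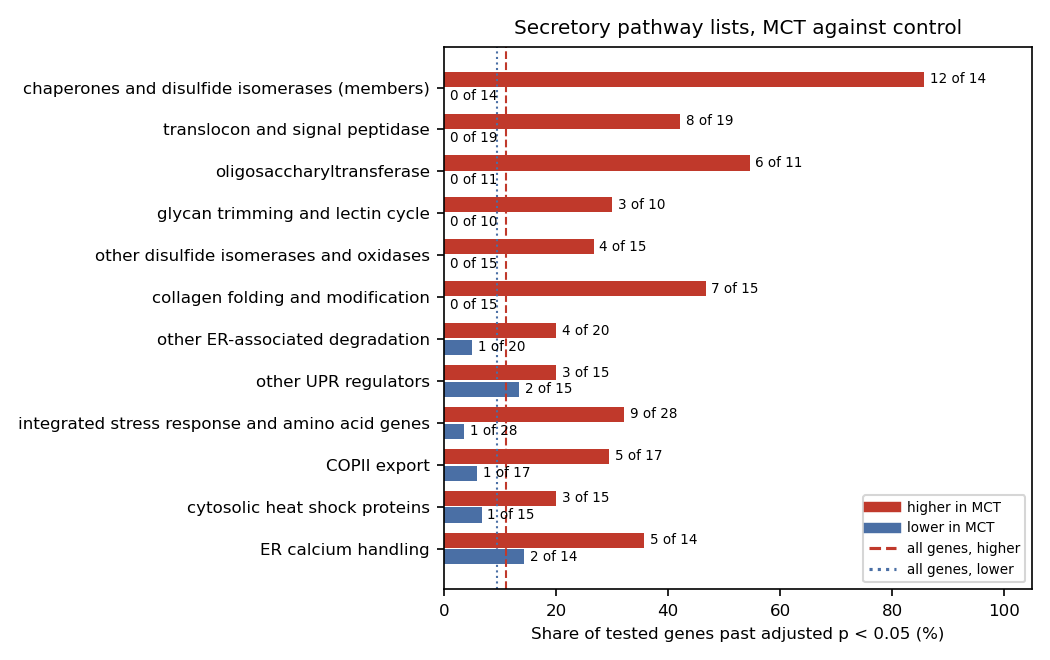
Share of the tested genes of each list that was higher (red) or lower (blue) in MCT at an adjusted p under 0.05, with counts beside the bars; lines give the shares over all genes tested, 11% higher and 9.45% lower. The 14 folding genes have 12 higher, and the oligosaccharyltransferase list has 6 of 11.

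In the COPII export list, 5 of 17 were higher and 1 lower, led by Sar1b (0.49) and Sec16b (1.01), and 5 were called higher when MCT 1 was left out, but 2 or 3 when any other library was. Leaving out MCT 1 gave 3 lower and any other library 0, while limma called 0 lower and DESeq2 4. In the ER calcium list, 5 of 14 were higher and 2 lower. Calu, the calcium-binding protein calumenin, was at 118 ± 14.5 FPKM in MCT and 67.3 ± 1.17 FPKM in control, while Atp2a3, a calcium pump of endothelial and blood cells, fell to 19.6 ± 3.32 FPKM in MCT, against 61.6 ± 13.1 FPKM in control. The count of higher calcium genes was 2 without MCT 2, control 3 or control 4 and 3 without MCT 3, MCT 4 or control 1, and the count of lower ones was 1 without control 4.

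Of 20 other degradation genes, 4 were higher and 1 lower, led by Vcp, the ATPase that extracts proteins from the membrane (0.39), and Selenos (0.42), and the number higher was 2 without MCT 3, MCT 4 or control 2. The 1 lower call was lost without any 1 library other than control 1. Of 15 other UPR regulators, 3 were higher and 2 lower, led by Creb3l1, an ATF6-like factor of matrix-making cells (0.99), and Bax, a pro-apoptotic gene and p53 target (0.97). Those lower were Mbtps1, the site-1 protease that cleaves ATF6 (-0.29), and Creb3l4 (-0.74), named after their values were seen, and the number lower was 0 to 2 when 1 library was left out. Of 28 genes of the integrated stress response and amino acid supply, 9 were higher and 1 lower. Gdf15, a stress cytokine, was at 33.8 ± 9.90 FPKM in MCT and 9.01 ± 2.62 FPKM in control, and Eif2s1, which encodes eIF2 alpha itself, at 36.02 ± 1.88 and 23.9 ± 1.33 FPKM. Leaving out MCT 4 gave 4 higher, and leaving out MCT 2 or control 2 gave 5. The 1 lower call was lost without MCT 2, MCT 4, control 2, control 3 or control 4, by limma and with the replicate number as a block.

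For the heat shock proteins of the cytosol and mitochondria, the chaperones outside the ER, 3 of 15 were higher and 1 lower, with a median log2 fold change of -0.01. The mitochondrial chaperonins Hspd1 and Hspe1 were among the higher ones, at 0.38 and 0.65. The number higher was 0 without MCT 2 or MCT 3 and 1 without control 3 or control 4. The 1 lower call was lost without MCT 2, MCT 3, MCT 4, control 1, control 2 or control 3 and by limma on log2(FPKM + 0.5). The list's summed level was 2122 to 2579 FPKM in MCT and 1976 to 2668 FPKM in control, so the groups overlapped, unlike those of the ER folding genes.

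Markers of some other cell types were higher along with the folding genes, while those of other types were mixed, mostly lower or not called. In whole tissue a change in the number of cells of a type cannot be told apart from a change in RNA per cell. Of 9 fibroblast markers, 4 were higher and none lower (none by DESeq2 or limma or at an unadjusted p under 0.05), and their summed level was 1131 to 1874 FPKM in MCT and 685 to 887 FPKM in control. Col1a1 and Col3a1, collagens of fibroblasts, had log2 fold changes of 1.70 and 1.41, and the count was 2 without control 2. Of 9 plasma cell markers, 2 were higher and none lower (none by DESeq2 or limma or at an unadjusted p under 0.05), Jchain (0.84) and Ighm (0.68), with a summed level of 562 to 713 FPKM in MCT and 383 to 459 FPKM in control. Of 10 mast cell markers, 8 were higher and 2 lower, with Ms4a2 at 32.5 ± 12.7 FPKM in MCT and 0.815 ± 0.218 FPKM in control and Gata2 at -1.299 on the log2 scale. Their sum was 313, 1013, 1004 and 1326 FPKM in MCT 1 to 4 and 153 to 171 FPKM in control. MCT 1 had the lowest mast cell, fibroblast and folding gene sums of the MCT libraries (313, 1131 and 2414 FPKM). Each was above that sum in every control library (at most 171, 887 and 1771 FPKM). A list's sum weighs its most abundant genes most. MCT 1 also had the highest dividing cell, macrophage, club, ciliated and cardiac sums of the MCT libraries (152, 18576, 31606, 713 and 179 FPKM). Its plasma cell, alveolar type 2 and endothelial sums were neither highest nor lowest. The highest folding gene sum was in MCT 2, and the highest fibroblast and mast cell sums were in MCT 4.

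Of 10 markers of dividing cells, 9 were higher and none lower (none by DESeq2 or limma or at an unadjusted p under 0.05), with Tpx2 at 3.07 and Prc1 at 1.70 on the log2 scale, and a summed level of 91.5 to 152 FPKM in MCT and 19.97 to 50.7 FPKM in control. Of 10 macrophage markers tested, 6 were higher and none lower (none by DESeq2 or limma or at an unadjusted p under 0.05), with C1qa at 1.78 and C1qc at 1.84, while the summed level overlapped, at 10024 to 18576 FPKM in MCT and 12452 to 17097 FPKM in control. Of the alveolar type 2 markers, 1 of 10 was higher and 5 lower, with Slc34a2 at -1.08 and Etv5 at -0.87, and a summed level of 20942 to 27187 FPKM in MCT and 29039 to 37602 FPKM in control. Sftpc alone gave 13663 to 17053 FPKM of that level in MCT and 18776 to 26795 FPKM in control. The number lower was 3 without MCT 3, MCT 4, control 2 or control 3, and none was higher without control 4. Of 9 endothelial markers, 1 was higher (Emcn, 1.15) and 1 lower (Tek, -2.61), with sums of 521 to 672 FPKM in MCT and 628 to 722 FPKM in control, and 3 were lower without MCT 1.

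Of 8 club cell markers, 2 were lower, Cyp2b1 (-0.87) and Cyp4b1 (-0.69), with sums of 9581 to 31606 FPKM in MCT and 10463 to 22945 FPKM in control. Most of these sums was Scgb1a1, at 9029 to 30469 FPKM in MCT and 9771 to 21690 FPKM in control. Without MCT 1, 1 club cell marker was higher. None of 9 ciliated or 8 cardiac markers was called by edgeR, DESeq2 or limma, with 1 cardiac marker at an unadjusted p under 0.05. Without MCT 1, 1 ciliated marker was lower, and without control 1, 1 cardiac marker was lower. Their most abundant tested genes were Tppp3 (-0.39) and Actc1 (0.43), and the sums were 347 to 713 and 30.9 to 179 FPKM in MCT and 562 to 760 and 36.5 to 74.5 FPKM in control. Each of the 10 marker lists had all its genes above 0 in some library of both groups, except that Marco and Bpifa1 were listed at 0 in all control libraries. The part of these cell types in the levels of the folding genes was not tested.

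Fold changes in this series also moved with transcript length. Over all genes tested, the median log2 fold change was 0.18 in the shortest of 5 equal bins (up to 1204 bases) and -0.12 in the longest (4009 bases and over). Of the 7 genes in the shortest bin, Sdf2l1, Manf, Sec61b and Derl2 were called. The 7 in the longest were the 3 sensors Ern1, Atf6 and Eif2ak3, with Canx, Hyou1, Syvn1 and Sel1l. In that longest bin, 7.36% of all genes tested were higher and 18.9% lower, against 11.8% and 2.57% in the shortest. With each library's trend with length removed, an alternative added after the data were seen, 19 of the 37 genes were higher and 2 lower, and 13 of the 14 folding genes were higher. Hspa5 was then at 0.78, Calr at 0.66, Sdf2l1 at 0.92, Sec61b at 0.47, Sec61g at 0.56 and Ern1 at -0.34 on the log2 scale. The other sensors, Eif2ak3 (0.25) and Atf6 (-0.01), were not called. Hyou1 (adjusted p = 0.0393), Sel1l (adjusted p = 0.0333), Derl1 and Ssr3 were called higher, and Derl2 lost its call (adjusted p = 0.0531).

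**Figure D5:**
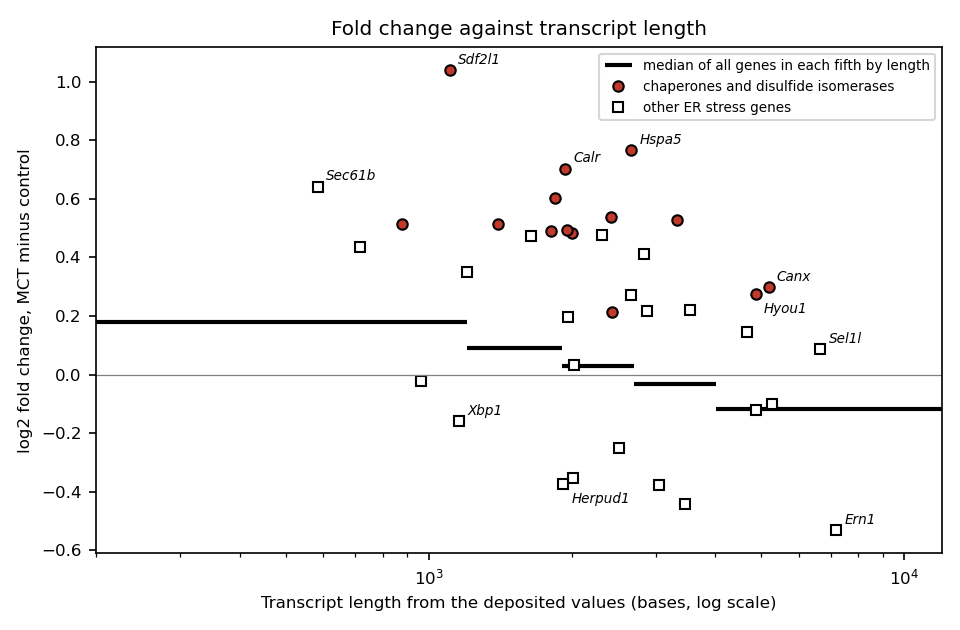
Log2 fold change of the 37 genes against transcript length in bases (log scale, derived from the deposited counts and FPKM), with the median of all genes tested in each of 5 bins by length as black bars. The medians are 0.18 in the shortest bin and -0.12 in the longest, and Hspa5 lies at 0.77 and Ern1 at -0.53.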

How the data were processed

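Lung RNA of 4 MCT and 4 control rat samples was captured with oligo(dT) beads and sequenced, per the labels. Per the submitters' processing notes, the authors used cutadapt 1.9, HISAT2 2.0.4, StringTie 1.3.4d and edgeR with build Rnor_6.0, in an order and with settings not given in the sources used here. The deposited estimated counts are whole numbers in which 1 read pair is worth about 3.67 units, and the deposited FPKM values are the authors' own. Counts were tested with edgeR 4.0.16 in R 4.3.3 (filterByExpr with a minimum count of 10, TMM, robust quasi-likelihood fit). limma 3.58.1 on log2(FPKM + 0.5) and DESeq2 1.42.0 were alternatives. The fit was tested on simulated data. No libraries of a group were duplicates (chi-square per gene at least 16.1).

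The genes and lists were chosen with earlier results of these data known, so no list was tested as a set. Counts use p-values adjusted over all genes tested. All called genes of the 37 are given by library. Of the others, the 8 with the highest mean FPKM and those whose groups do not overlap are given with their mean and SD, range or values by library. In each related or marker list, the 2 called genes with the smallest p are named, or the most abundant gene where none was called. Several members overlap another gene in the annotation, so their reads may be shared. Ddit3, Syvn1, Derl3, Pdia3, Dnajc3 and Edem3 do so on the other strand. Hsp90b1, Pdia4, Pdia3 and Atf6 do so on the same strand, where counting by strand would not separate the reads. Promoter sequences come from RefSeq, build GRCr8, and no coordinates were converted between builds. The alternatives were other scalings, filters, pseudocounts and tools, the replicate number as a block, and libraries left out.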

Additional observations from a re-analysis of the deposited data

Results flagged for a closer look

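The named genes were examined in each group for 1 library far from the other 3, by the gap to its nearest neighbour as a share of the group's range. In 10 of 154 sets the share was above Dixon's 95% critical value, and chance gives about 1 in 20, here 7.7 sets. MCT 1 was the distant library in 7 of the 10.

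Among the UPR genes, Dnajb9 (0.907) was high in MCT 1, at 17.96 FPKM against 15.13 to 15.44 FPKM in the other MCT libraries. Ern1 was set apart in both groups: MCT 1 was high (0.866) at 7.91 FPKM against 6.37 to 6.69 FPKM, and control 1 was low (0.847) at 8.07 FPKM against 10.15 to 11.14 FPKM. Atf6 (0.924) was low in MCT 1, at 10.38 FPKM against 14.00 to 14.57 FPKM. Among the degradation genes, Syvn1 (0.870) was high in MCT 1, at 25.31 FPKM against 19.27 to 20.03 FPKM, and Edem1 (0.844) was low there, at 26.15 FPKM against 36.37 to 38.73 FPKM.

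Among the other named genes, Vcp (0.957) was low in MCT 1, at 111.9 FPKM against 138.55 to 141.01 FPKM, and so was the mast cell marker Ms4a2 (0.920), at 13.66 FPKM against 37.31 to 41.38 FPKM. Sec16b (0.898) was high in MCT 2, at 3.71 FPKM against 2.57 to 2.69 FPKM. P4hb (0.907) was high in control 4, at 212.67 FPKM against 197.64 to 205.03 FPKM.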

How the results depend on the processing

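Of the 18 called genes of the 37, 13 were called under all 20 alternatives, and of the 19 others 13 were called under none. The number higher was 14 to 19 and the number lower 1 to 2 when 1 library was left out, and 15 and 1 with the replicate block, 18 and 2 by DESeq2. The number lower was also 1 by limma on log2(FPKM + 0.1). The folding genes had 10 to 12 higher and none lower in any fit without 1 library. Over all genes, the numbers were 1191 to 1946 higher and 975 to 1730 lower, lowest without MCT 2, and 1436 and 1271 with the replicate block.

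Of the related genes, 29 to 56 were higher and 2 to 8 lower when 1 library was left out. With limma on log2(FPKM + 0.1), 36 were higher and 3 lower. The number higher was 40 with a pseudocount of 0.5, 45 with 1, 64 by DESeq2 and 41 with the replicate block. The number lower was 3 with a pseudocount of 0.5, 4 with 1, 14 by DESeq2 and 5 with the replicate block. The cause of these shifts was not tested. Log2 fold changes near 0 changed sign without being called: Atf6 was 0.0131 without control 4 (-0.237 to 0.0131 over the fits without 1 library), Atf4 was -0.005 and Syvn1 0.0222 with the length trend removed, and Ddit3 was 0.0541 and 0.0543 without MCT 2 and MCT 4 (-0.178 to 0.0543 over the fits without 1 library), 0.0181 and 0.024 without control 1 and control 4, and 0.0026 without MCT 1 and control 1.

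Libraries of the same number correlated at -0.08 to 0.11 in their deviations from the group means. The value for MCT 1 with control 1, 0.11, was the highest of any MCT library with any control library. Over 4 libraries a group, these correlations cannot decide whether the numbers pair the samples or mark a shared batch. With 4 libraries a group, a gene that did not pass cannot be read as unchanged.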
